A study of Mus musculus with 12 samples.

Results

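The E2F transcription factors and the pocket proteins that bind them were followed in mouse NIH3T3 cells treated with 2 inhibitors of the kinase mTOR. The genes were E2f1 to E2f8, Rb1 and Rbl1, matched to array probes through the RefSeq accession of each probe, and all 10 were found among the 32678 genes and unnamed transcripts of the array. NIH3T3 is an immortalised line of mouse embryo fibroblasts that is known to lack the Cdkn2a locus. The cells were kept in serum and treated for 18 h with PP242 at 2 µM, rapamycin at 50 nM or the solvent DMSO alone, with 4 experiments per group that the study calls independent. For PP242 the design text gives 2 µM and the treatment protocol 2 mM, and the first is used here. Rapamycin binds FKBP12 and inhibits mTOR complex 1 allosterically, whereas PP242 blocks the ATP site of mTOR in both of its complexes. The comparison of the compounds is therefore one of these treatments, at doses that differ.

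E2F factors switch on the genes of the G1 to S transition when cyclin-dependent kinases phosphorylate the pocket proteins (Rb1, Rbl1, also called p107, and Rbl2, also called p130) and free the E2Fs from them. E2f1, E2f2 and E2f3 are known as activators, E2f4 and E2f5 act mostly as repressors with p107 and p130, and E2f6 represses without pocket proteins, through Polycomb partners. E2f7 and E2f8 are atypical: each has 2 DNA-binding domains, needs no DP partner, and represses E2F targets later in S phase. Several of these genes are themselves E2F targets, so their mRNA is known to change with the cell cycle in fibroblasts.

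Each value below is a log2 signal minus the 75th percentile of its array, so values above 0 mark the brightest probes of an array. It allows arrays to be compared for a gene and not genes with each other. Of the 12 arrays, 8 had a wide range of signal, with a 75th percentile 261 to 420 times the 25th and 55.7 to 60.4% of 41174 probes well above background. DMSO 2, PP242 1, PP242 4 and rapamycin 3 had raised dim probes, with ratios of 7.12 to 51.1 and 77.9 to 97.9% of probes well above background. The main tests therefore used the 8 wide-range arrays (3 DMSO, 3 rapamycin and 2 PP242), and the fit of all 12 stands beside them. Among the 8, DMSO 4 and rapamycin 4 stood apart from their groups in the same way: their deviations from the group means had r = 0.62 across 19353 genes, which share these arrays and are not replicates. Of the fibroblast markers, 7 of 7 were tested and well above background on all 12 arrays. Of these, Pdgfrb alone passed the test described below. It was higher under PP242 than under DMSO (0.82, limma adjusted p = 0.0168) and rapamycin (0.78, 0.0325). On all 12 arrays it differed from DMSO by 0.45 (limma adjusted p = 0.796), with PP242 4 at 2.29, below every DMSO array. The epithelial markers Epcam, Cdh1 and Krt18 were not well above background on any of the 8 arrays, and Krt8 was higher on DMSO 4 (-3.24) and rapamycin 4 (-4.04) than on the other 6 (-6.75 to -5.93). Of the blood markers, 2 of 3 were tested and none passed. Cd3e was dim (-6.06 to -4.22 on the 8 arrays) but well above background on all 12. Of the 8 arrays, the Ptprc probe used was well above background on PP242 2 and PP242 3. Endothelial markers (0 of 3 tested) did not pass the filter on dim probes.

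The promoters are shown for the members whose mRNA fell below and whose start region held an E2F word or a CHR word. The CHR, or cell cycle genes homology region, is the element that MuvB complexes bind. RefSeq start windows (250 bases before to 50 after a gene's start, build GRCm38.p6) were at hand for 7 of the 10 members. The E2F words searched on both strands were TTTCCCGC, TTTCGCGC, TTTGCCGC and TTTGGCGC, and the CHR word was TTTGAA. These 7 members had 9 windows. An E2F word stood in 4 of the 9, from 4 members, against 2.265% of 32851 windows in the table. The CHR word stood in 3 of the 9, from 3 members, against 17.893% of windows. No window of E2f1, whose mRNA also fell, held either word. Each sequence reads 5′ to 3′ on the gene's strand, and capitals mark the matches, in either orientation, none of which overlap. The stretches are chr2:157204535-157204654 (minus strand) for Rbl1, chr13:29986064-29986183 (minus) for E2f3, chr10:110745189-110745308 (plus) for E2f7, chr7:48881597-48881716 (minus) for E2f8 and chr4:136172294-136172323 (plus, downstream of the start) for E2f2.
Rbl1: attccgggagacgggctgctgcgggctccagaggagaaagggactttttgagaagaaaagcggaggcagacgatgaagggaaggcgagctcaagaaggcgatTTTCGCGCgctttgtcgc
E2f3: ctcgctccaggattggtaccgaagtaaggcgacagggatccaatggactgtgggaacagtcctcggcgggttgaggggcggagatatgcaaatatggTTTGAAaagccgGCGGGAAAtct
E2f7: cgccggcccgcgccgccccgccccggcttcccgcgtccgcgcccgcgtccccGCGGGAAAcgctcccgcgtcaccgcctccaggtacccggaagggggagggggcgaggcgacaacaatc
E2f8: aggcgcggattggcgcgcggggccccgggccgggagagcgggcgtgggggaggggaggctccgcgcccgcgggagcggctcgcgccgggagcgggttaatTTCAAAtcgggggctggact
E2f2: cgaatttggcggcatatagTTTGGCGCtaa
Counted from the start, with negative positions before it, the E2F word of Rbl1 spans -18 to -11 and that of E2f3 -11 to -4, with the CHR word of E2f3 at -23 to -18. The E2F word of E2f7 lies farther out, at -198 to -191, and the CHR word of E2f8 at -20 to -15. A second start window of E2f2 also holds a CHR word. These matches describe the letters of the windows and are not evidence of binding.

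Under PP242, 6 of the 10 genes fell against DMSO and none rose. The genes that fell were the 3 activators E2f1, E2f2 and E2f3, the atypical repressors E2f7 and E2f8, and the pocket protein gene Rbl1, by 1.63-fold (E2f1) to 4.97-fold (E2f2). E2f4, E2f5, E2f6 and Rb1 did not pass the test. The test was limma on the 8 wide-range arrays with Benjamini-Hochberg adjustment over 19669 genes and a threshold of 0.05, and 25.9% of all genes passed it (12.9% lower). All 10 members passed the filter on dim probes, and the brightest probe of each was well above background on every array. The median log2 fold change of the 10 was -0.72, beside -0.01 over all genes. In bulk RNA, fewer cells in a phase that makes these transcripts and less transcript per cell cannot be told apart.

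On all 12 arrays no member passed limma's test in this comparison, where 0.387% of 25581 genes did. At an unadjusted p under 0.05, 4 members and 9.05% of genes passed. The median of all genes was then 0.38 above DMSO, a shift that was -0.01 on the 8 arrays. Leaving out rapamycin 3 alone brought all 6 calls back on 11 arrays, where 23.1% of genes passed. The levels of the 6 genes on all 4 PP242 arrays lay below those on all 4 DMSO arrays, as did those of 13.8% of genes on the 12 arrays. With DMSO 4 and rapamycin 4 left out of the 8, the 6 calls held and E2f6 and Rb1 passed too, in a fit of 6 arrays where 49.3% of genes did.

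**Figure D1:**
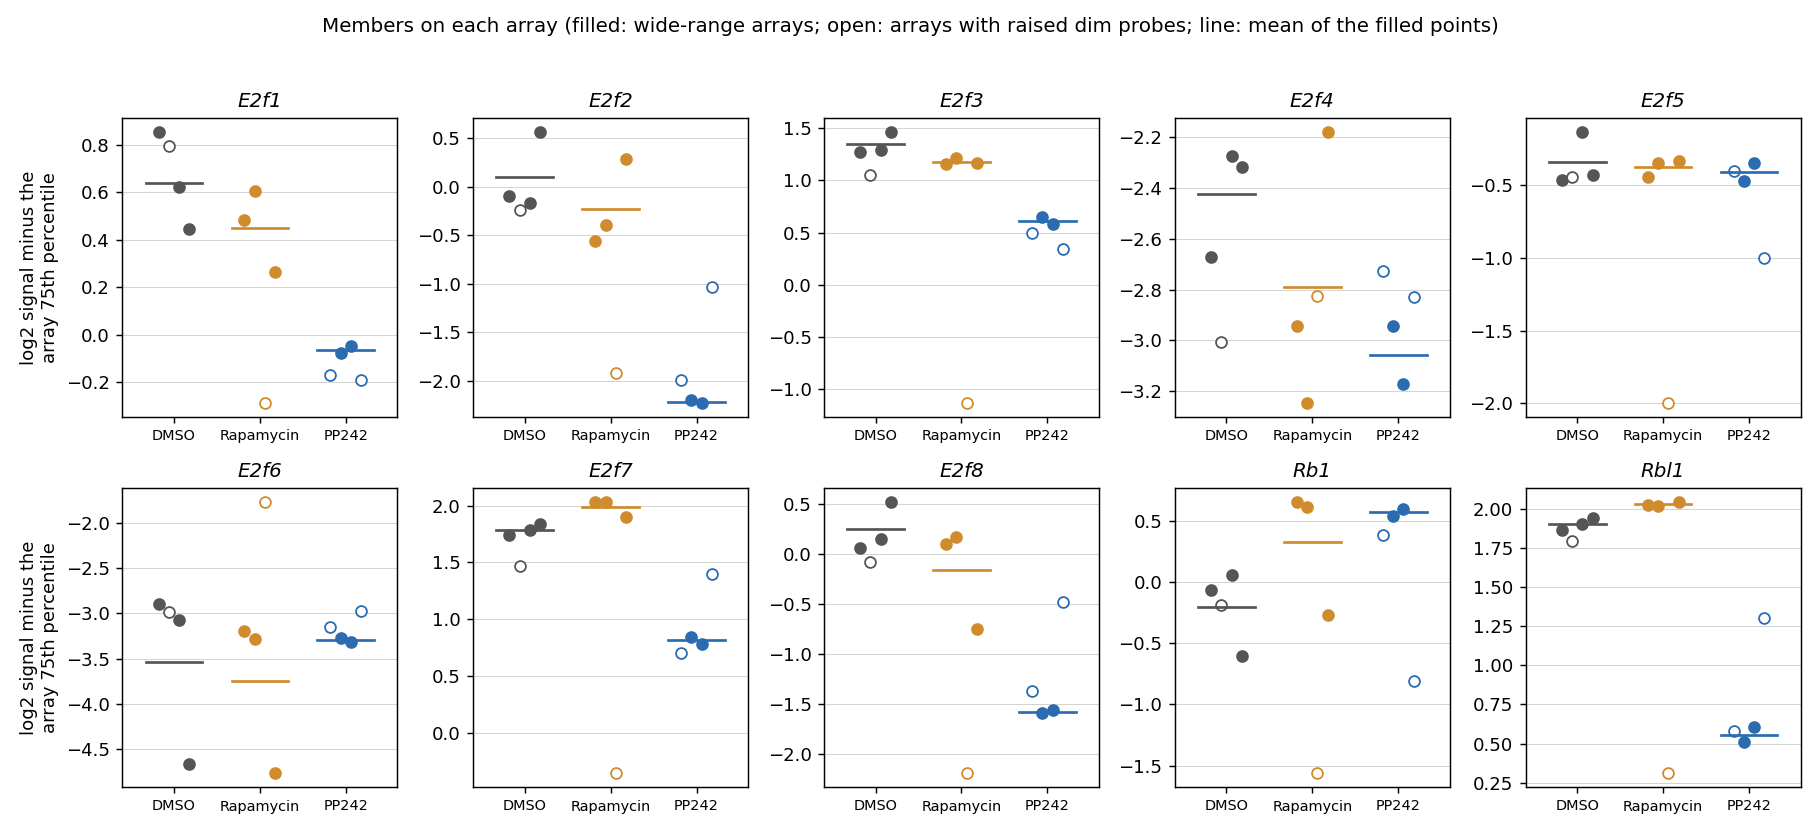
The log2 signal minus the array's 75th percentile (vertical axis, own scale in each panel) of the 10 genes on each of 12 arrays by group. Filled points are the 8 wide-range arrays, open points the 4 with raised dim probes, and lines the means of the filled points. In E2f1, E2f2, E2f3, E2f7, E2f8 and Rbl1 every PP242 point lies below every DMSO point, and rapamycin 3 is the lowest rapamycin point.

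Among the activators, E2f2 moved most. It read -0.10, -0.24, -0.17 and 0.57 on DMSO arrays 1 to 4, -0.56, -0.40, -1.91 and 0.28 on the rapamycin arrays, and -1.99, -2.20, -2.23 and -1.03 on the PP242 arrays. The PP242 and DMSO groups did not overlap, and the weakest fall was on the raised array PP242 4. Its log2 fold change was -2.31 ± 0.32 (SE, 3 DMSO and 2 PP242 arrays; limma adjusted p = 0.00373), and -1.88 ± 0.47 on 12 arrays. Within the 3 slides, over all 12 arrays, the difference was -2.43, -1.39 and -1.82. Here and for the genes below, only the first slide compares wide-range arrays alone. The second slide sets PP242 3 and the raised array PP242 4 against the raised array DMSO 2. The third rests on the raised array PP242 1. With slide as a block in the fit of 8 arrays, the call was lost at -2.20 (limma adjusted p = 0.0546). In that fit 3 of the 6 calls remained among 7.01% of genes.

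E2f1, the founding member, which is known to drive both S phase entry and apoptosis, fell less. Its levels were 0.86, 0.80, 0.62 and 0.44 under DMSO, 0.48, 0.60, -0.29 and 0.26 under rapamycin and -0.17, -0.08, -0.05 and -0.19 under PP242. All 4 PP242 arrays were close together and below all DMSO arrays. The log2 fold change was -0.70 ± 0.16 (limma adjusted p = 0.0199), -0.80 on 12 arrays, and -0.73, -0.92 and -0.79 within the slides. The other E2f1 probe also fell, by 0.60 on the log2 scale (limma adjusted p = 0.0332 in a fit of single probes). The E2f1 call depended on single arrays. It was lost without DMSO 3 (-0.71, limma adjusted p = 0.0552), where 3598 of 19569 genes passed, and with the slide block (-0.80, 0.0832). It was also lost without PP242 2 (-0.69) or PP242 3 (-0.72), fits that leave 1 PP242 array.

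For E2f3 the 3 probes gave different answers. The brightest read 1.27, 1.05, 1.29 and 1.47 under DMSO, 1.15, 1.21, -1.13 and 1.16 under rapamycin and 0.50, 0.65, 0.58 and 0.35 under PP242, with no overlap between PP242 and DMSO. It fell by 0.73 ± 0.10 on the log2 scale (limma adjusted p = 0.00336). The other probes differed from DMSO by -0.28 and -0.08, and neither passed, although the first of these was lower on all 4 PP242 arrays than on every DMSO array. Taking the mean of the 3 probes, the change was -0.36 (limma adjusted p = 0.0809). The call of the brightest probe held with each of the 8 arrays left out in turn and was lost with the slide block (-0.74, limma adjusted p = 0.0522). Which transcripts of E2f3 the probes detect was not analysed here.

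**Figure D2:**
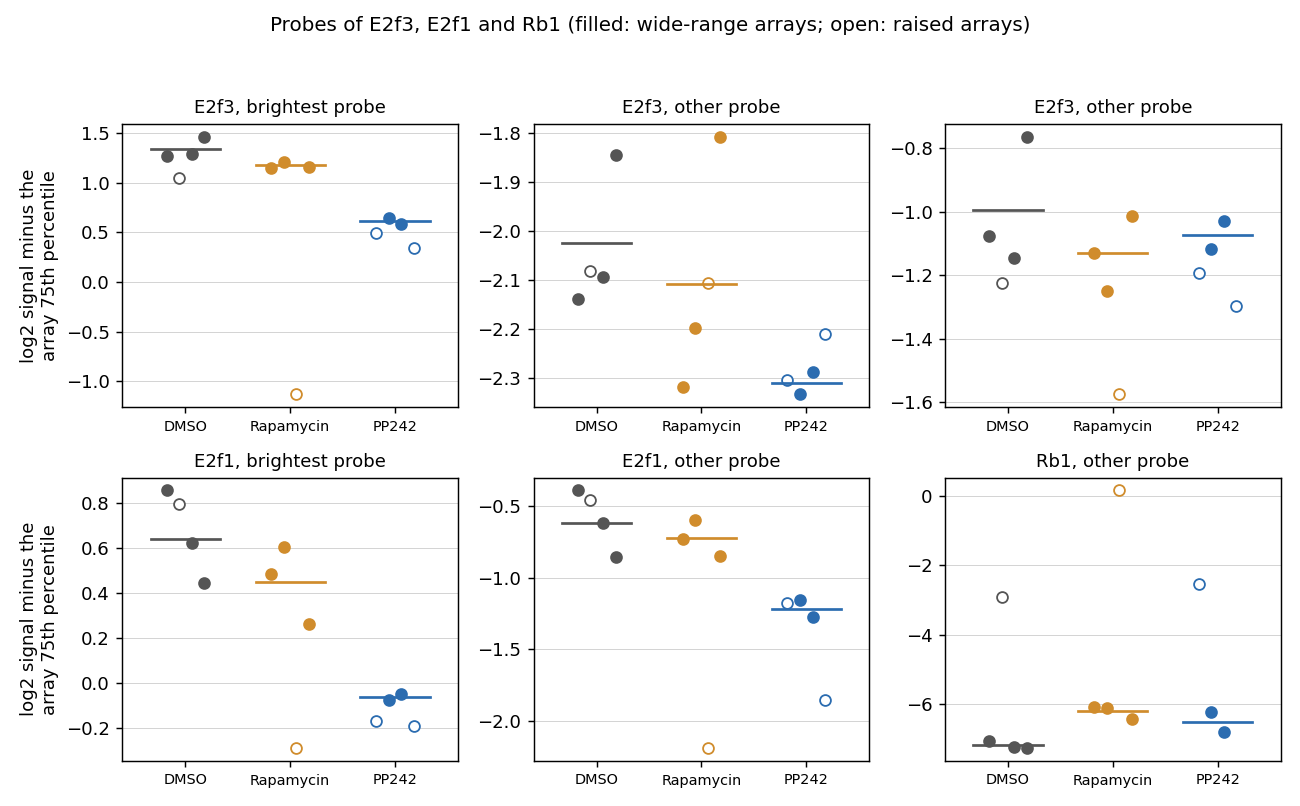
Single probes of E2f3, E2f1 and Rb1 on each array by group, as log2 signal minus the array's 75th percentile (vertical axis, own scale in each panel). Filled points are wide-range arrays, open points raised arrays, and lines the means of the filled points. Under PP242 the brightest E2f3 probe fell by 0.73 while the others differed by -0.28 and -0.08, both E2f1 probes fell, and the other Rb1 probe is dim and far higher on the raised arrays.

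E2f4 and E2f5, the repressors that enter the nucleus with pocket proteins, did not pass the test. E2f4 read -2.67, -3.01, -2.27 and -2.32 under DMSO, -2.94, -3.25, -2.82 and -2.18 under rapamycin and -2.73, -2.94, -3.17 and -2.83 under PP242. The groups overlapped on 12 arrays, though not on the 8. The log2 difference of PP242 from DMSO was -0.64 ± 0.32, with a 95% interval from -1.40 to 0.13 (limma adjusted p = 0.199). Without rapamycin 4, which enters only through the shared spread, it passed at -0.64 (limma adjusted p = 0.0426), where 6204 of 19288 genes did. Of the 26 alternative settings described below, it passed in 2. E2f5 lay between -0.46 and -0.13 under DMSO and between -1.001 and -0.35 under PP242, overlapping throughout. Its difference was -0.07 ± 0.13, with an interval from -0.38 to 0.24, so a fall the size of that of Rbl1 lay outside it.

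E2f6, the Polycomb-linked repressor, showed no change that could be separated from its spread. It read -2.89, -2.98, -3.07 and -4.66 on the DMSO arrays, -3.20, -3.29, -1.76 and -4.77 on the rapamycin arrays and -3.14, -3.27, -3.31 and -2.97 on the PP242 arrays. DMSO 4 and rapamycin 4 were far below the rest of their groups. The PP242 difference was 0.25 ± 0.67 with an interval from -1.37 to 1.87. Without those 2 arrays it was -0.31 (limma adjusted p = 0.0408), so the sign of the difference turned.

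The atypical factors both fell. E2f7 read 1.74, 1.47, 1.79 and 1.84 under DMSO, 2.03, 2.03, -0.36 and 1.90 under rapamycin, and 0.70, 0.85, 0.78 and 1.39 under PP242. PP242 lay below DMSO on every array, with the raised pair DMSO 2 and PP242 4 only just apart. The log2 fold change was -0.98 ± 0.09 (limma adjusted p = 0.00106) and -0.78 on 12 arrays. This call held with each array left out in turn and with slide as a block (-0.99, limma adjusted p = 0.0278). Within the slides, over all 12 arrays, the difference was -0.94, -0.38 and -1.09.

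E2f8, the partner of E2f7 in repressing E2F targets, fell further. Its levels were 0.07, -0.08, 0.15 and 0.53 under DMSO, 0.10, 0.17, -2.19 and -0.75 under rapamycin and -1.37, -1.59, -1.56 and -0.47 under PP242. No PP242 array reached a DMSO array, and rapamycin 4 lay well below rapamycin 1 and 2. The log2 fold change was -1.83 ± 0.30 (limma adjusted p = 0.00678), -1.42 on 12 arrays, and -1.89, -0.94 and -1.52 within the slides. It held with the slide block (-2.06, limma adjusted p = 0.0308). The call was lost without PP242 2 (-1.81) or PP242 3 (-1.84), with 1 PP242 array left in each of these fits.

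Of the pocket protein genes, Rbl1 fell and Rb1 did not pass the test. Rbl1, whose product p107 holds E2F4 on repressed promoters, read 1.87, 1.80, 1.90 and 1.94 under DMSO, 2.03, 2.02, 0.31 and 2.05 under rapamycin and 0.58, 0.51, 0.61 and 1.30 under PP242. Apart from rapamycin 3 and PP242 4, the arrays of each group lay close together, and PP242 was below DMSO on all of them. Rbl1 fell by 1.35 ± 0.08 on the log2 scale, or 2.54-fold (limma adjusted p = 0.000425), and by 1.13 on 12 arrays. That call held with each array left out in turn and with the slide block (-1.36, limma adjusted p = 0.0190). Within the slides, over all 12 arrays, the difference was -1.40, -0.84 and -1.32.

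Rb1, which encodes the retinoblastoma protein, read -0.07, -0.19, 0.06 and -0.61 under DMSO, 0.65, 0.61, -1.56 and -0.27 under rapamycin, and 0.38, 0.54, 0.60 and -0.81 under PP242. The 8 wide-range arrays put PP242 above DMSO without overlap, and the raised array PP242 4 was the lowest of its group. The log2 difference was 0.77 ± 0.33 with an interval from -0.02 to 1.57 (limma adjusted p = 0.141). Leaving out rapamycin 4 brought it past the threshold at 0.77 (limma adjusted p = 0.0401), where 6204 of 19288 genes passed. Of the 26 alternative settings, it passed in 3. Without DMSO 4 and rapamycin 4 it was 0.57 against DMSO (limma adjusted p = 0.00412). On 12 arrays the difference was 0.38. A dimmer Rb1 probe also passed in the fit of single probes (0.68, limma adjusted p = 0.0491), but it was well above background on 2 of the 8 arrays and on no wide-range DMSO array, so its size is not a measured one.

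**Figure D3:**
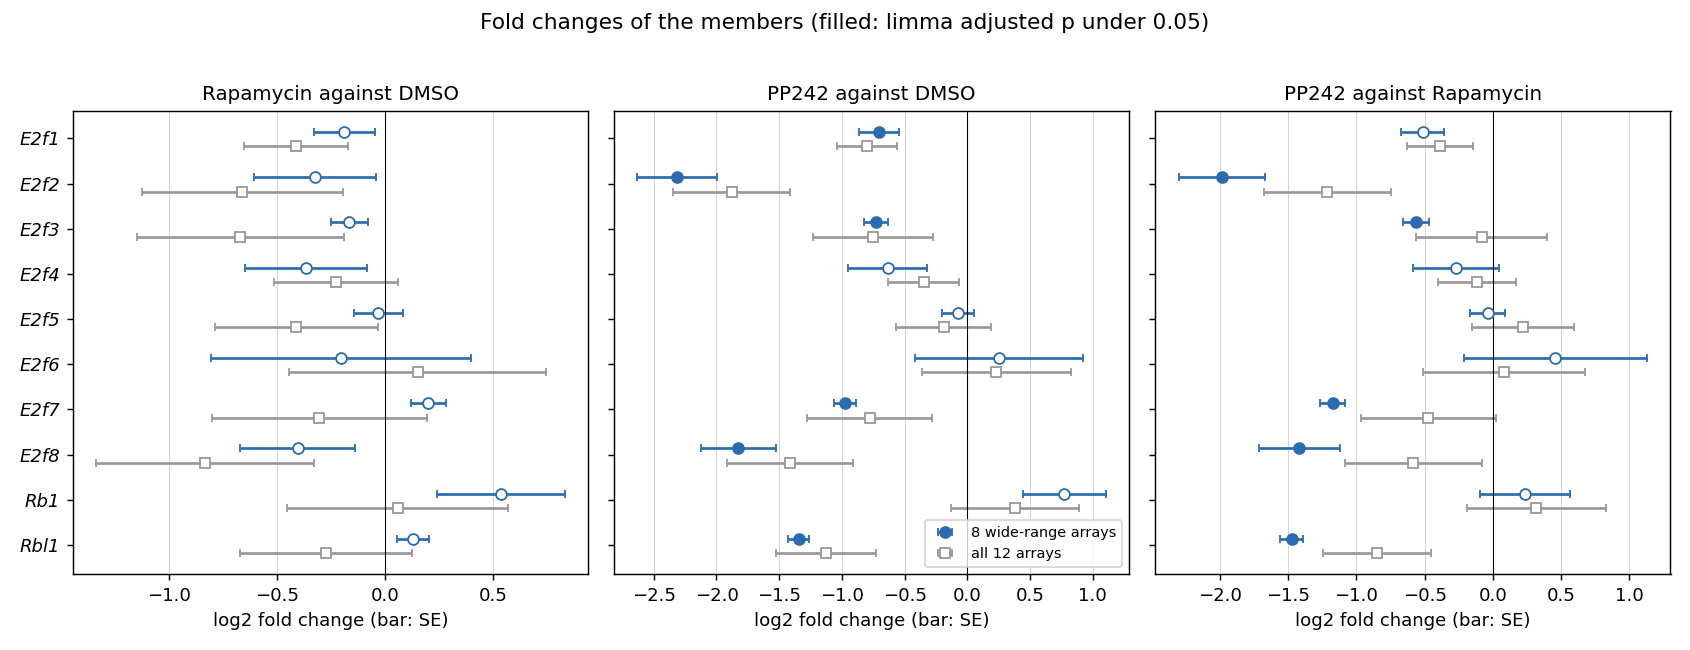
Log2 fold changes (horizontal axis, own range in each panel) of the 10 genes in the 3 comparisons, with SE bars. Blue circles are the fit of 8 wide-range arrays, filled where the limma adjusted p was under 0.05, and grey squares the fit of all 12. No rapamycin circle is filled, 6 are filled in the panel of PP242 against DMSO and 5 in that of PP242 against rapamycin, and no square is filled.

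No member passed limma's test for rapamycin against DMSO, a comparison that shares its DMSO arrays with the one of PP242, on 8 arrays, where 0.0254% of genes passed, or on 12, where 0% did. At an unadjusted p under 0.05 the count was 1 of 10 on the 8 arrays (E2f7, in a comparison where 13.1% of genes reached that) and 0 of 10 on the 12, where 1.77% of genes did. E2f7 differed by 0.20 ± 0.08 (95% interval 0.0025 to 0.40, limma adjusted p = 0.375) and Rbl1 by 0.13 ± 0.07 (-0.05 to 0.31). On all 12 arrays both differences turned, to -0.31 and -0.28. Rapamycin 3, a raised array, was the lowest of its group for both genes (-0.36 and 0.31). On 11 arrays without it, E2f7 differed by 0.28 ± 0.17. Both E2f7 and Rbl1 lay above DMSO on all 3 wide-range rapamycin arrays, while the brightest E2f3 probe lay below it (-0.17, -0.38 to 0.04). These 3 genes were the members whose groups did not overlap on the 8 arrays, as in 18.6% of genes, and on 12 arrays no member's groups were apart, against 6.92% of genes.

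For E2f1 the rapamycin difference was -0.19, with an interval from -0.53 to 0.15, and for E2f2 -0.33, from -1.01 to 0.35. Single arrays set much of both: leaving out 1 array at a time moved E2f1 between -0.29 and -0.08 and E2f2 between -0.58 (without rapamycin 4) and -0.09 (without DMSO 4). E2f8 differed by -0.41, from -1.05 to 0.24, but by -0.11 without rapamycin 4 and by 0.03 without DMSO 4 and rapamycin 4. Rb1 had the largest positive difference of the 10, 0.53, from -0.18 to 1.25. Without DMSO 4 and rapamycin 4 it became 0.64 (limma adjusted p = 0.0234), and 11.3% of genes passed there. E2f4, E2f5 and E2f6 differed by -0.37, -0.03 and -0.21, and all their intervals held 0. E2f6 differed by 0.15 on 12 arrays.

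PP242 and rapamycin were also set against each other, in a comparison that shares its arrays of each group with the comparisons against DMSO. Under PP242, 5 members were lower than under rapamycin and none higher, while 13.9% of genes passed in either direction and 7.08% were lower. Rbl1 was lower by 1.47 ± 0.08 on the log2 scale (-1.47, limma adjusted p = 0.00106) and E2f7 by 1.17 ± 0.09 (-1.17, 0.00120). Those 2 calls held with each array left out in turn. E2f2 differed by -1.99 (0.0112), E2f3 by -0.56 (0.0145) and E2f8 by -1.42 (0.0274), and E2f1 missed the threshold at -0.51 (0.0820). The E2f3 call is that of its brightest probe. Its other probes differed by -0.20 and 0.06 and did not pass in the fit of single probes. E2f4, E2f5, E2f6 and Rb1 differed by -0.27, -0.04, 0.46 and 0.24, with intervals that held 0 in each.

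The calls of E2f2, E2f3 and E2f8 in this comparison were lost without PP242 2 or PP242 3, fits that leave 1 PP242 array. The E2f2 difference was then -2.004 or -1.97, that of E2f3 -0.59 or -0.53 and that of E2f8 -1.41 or -1.43. E2f3 also missed the threshold without rapamycin 2 (-0.54, limma adjusted p = 0.0528), where 1515 of 19392 genes passed. E2f8 missed it there (-1.25, 0.0719), without rapamycin 1 (-1.29, 0.0790) and without DMSO 3 (-1.42, 0.0541). In the last 2 fits 1480 of 19433 and 1910 of 19569 genes passed. On all 12 arrays no member and 0% of genes passed, and 1 member, E2f2, reached an unadjusted p under 0.05, as did 4.14% of genes. With rapamycin 3 left out, 5 members passed on 11 arrays, where 10.8% of genes did: E2f1 (-0.57, limma adjusted p = 0.0245) was now among them and E2f8 was not.

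Around the E2Fs, their dimer partners and the MuvB complex were also measured. MuvB joins E2F4 and p130 or p107 in quiescent cells as DREAM, and B-MYB (Mybl2) in cycling cells. Of 9 genes tested, 4 fell and 1 rose under PP242 against DMSO, with a median log2 fold change of -0.19, where 12.9% of all genes fell. None of the 9 passed limma's test on 12 arrays, though 5 had an unadjusted p under 0.05, as did 9.05% of all genes. Mybl2 fell by 1.88 ± 0.11 on the log2 scale (limma adjusted p = 0.000599), the MuvB subunit Lin9 by 0.96, and Tfdp1, which encodes the main dimer partner DP1, by 1.13 (0.00506). Tfdp2, which encodes the other partner, DP2, rose by 0.76 ± 0.12 (0.00607). Its levels were -1.82, -1.75, -1.77 and -1.70 under DMSO and -1.02, -1.08, -0.92 and -1.18 under PP242, so all 4 PP242 arrays lay above DMSO, while for Tfdp1 all 4 lay below it. Lin54, the subunit that contacts the CHR, was the other gene that fell, by 0.94. Rbbp4 and Lin37 differed by -0.19 and 0.33 and did not pass. Rbl2, the third pocket protein gene, was picked out after its value was seen: it differed by 0.20 ± 0.17 and did not pass. Under rapamycin no gene of this list passed limma's test, and 2 had an unadjusted p under 0.05, as did 13.1% of all genes.

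The kinases that inactivate pocket proteins, their cyclins and their inhibitors formed a list of 14, of which 11 were tested. Under PP242, 4 fell and none rose, with a median of -0.63, where 12.9% of all genes fell. On 12 arrays none of 13 tested passed limma's test, 3 had an unadjusted p under 0.05 (9.05% of all genes did), and the median was -0.26. Ccne1, the cyclin E gene and a known E2F target, fell by 1.82 ± 0.12 on the log2 scale (limma adjusted p = 0.000449). Its kinase Cdk2 fell by 0.92, Ccnd2 (cyclin D2) by 0.83 and Ccne2 by 1.23. The Cdk2 probe was dim (mean level -4.49), and the raised array PP242 1, at -4.10, lay above DMSO 1, 3 and 4. On 12 arrays Cdk2 differed by -0.79 (limma adjusted p = 0.796). Cdk4, which pairs with D cyclins, differed by 0.01 ± 0.09, and the inhibitor gene Cdkn2c by -0.20 ± 0.13. Cdkn2a was not well above background on any of the 12 arrays, and Cdkn2b and Cdkn1c on none of the 8. Under rapamycin no gene here passed limma's test, with 2 at an unadjusted p under 0.05, against 13.1% of all genes.

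The last of the main lists held E2F target genes of G1 and S phase. Of 24 tested, 22 fell under PP242 against DMSO, as did 12.9% of all genes, with a median log2 fold change of -1.48. Tk1 (thymidine kinase) fell by 2.30 ± 0.08 (limma adjusted p = 0.000375), Ccna2 (cyclin A2) by 1.90, the licensing inhibitor Gmnn by 1.48 and Rrm1 (ribonucleotide reductase) by 1.23. Cdca7, at -1.18 ± 0.36, did not pass. The PP242 and DMSO groups were apart, PP242 lower, for 24 of 24 genes, as for 29.2% of all genes. On 12 arrays the median was -1.27 and no gene passed limma's test, with 18 at an unadjusted p under 0.05, where 9.05% of all genes reached that. Rapamycin gave a median of -0.23, beside -0.02 over all genes, with all 24 values below 0 and no gene that passed. Of the 24, 4 had an unadjusted p under 0.05, as did 13.1% of all genes.

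The partners of E2f6 in its Polycomb repressor complex fell in 5 of 10 cases under PP242, with a median of -0.34, where 12.9% of all genes fell. On 12 arrays none of the 10 passed limma's test or reached an unadjusted p under 0.05. L3mbtl2, a chromatin-binding subunit, fell by 1.14 ± 0.17 on the log2 scale (limma adjusted p = 0.00548), but on 12 arrays it differed by -0.30 (0.891), with PP242 4 at 0.52 above every DMSO array measured. Yaf2 fell by 0.45, Cbx3 (HP1 gamma) by 0.54 and Wdr5 by 0.65. Max, the dimer partner of Mga, was the other, at -0.38 (-0.67 on 12 arrays). Rybp and Rnf2 differed by 0.08 and -0.15 and did not pass. Of 4 germ line genes known to be silenced through E2F6, Stag3, Smc1b and Slc25a31 were not well above background on the 8 arrays, so their state was not measurable. Tuba3a fell by 0.68, and its probes may also detect near-identical tubulin genes.

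**Figure D4:**
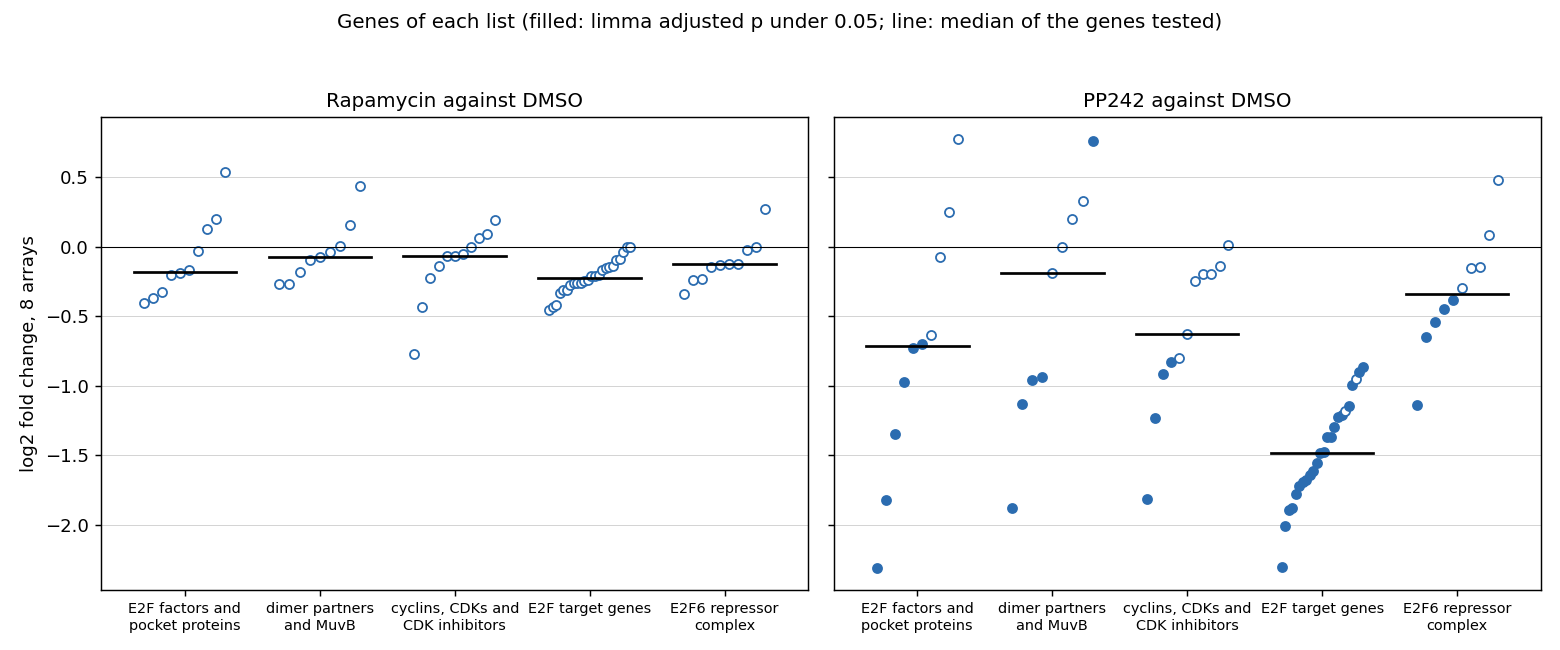
Log2 fold changes on 8 arrays (vertical axis) of each tested gene in the E2F and pocket protein group and 4 pathway lists, against DMSO, for rapamycin (left) and PP242 (right). Filled points had a limma adjusted p under 0.05 and lines are medians. No rapamycin point is filled, and the target genes under PP242 centre on -1.48 with 22 of 24 filled.

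For each member that fell under PP242, the genes with the most similar pattern were found among 10763 named genes well above background on all 8 arrays. Likeness was the root-mean-square log2 difference over the 8 arrays after each gene was centred on its own mean, so the treatment difference enters it. Nearest to Rbl1 were Id3 (0.0396), Stil (0.0503) and Mms22l (0.0591). Closest to E2f7 were Cenpk, Xkr5 and Pole (0.0618 to 0.0702), and to E2f2 Ung, Top2a and Bub1b (0.145 to 0.156). The nearest genes of E2f8 were Dna2, Kif24 and Dbf4, at a larger distance (0.242 to 0.245). E2f1 lay closest to Qpctl, Mtrr and Ndufaf4 (0.0410 to 0.0684), and E2f3 to Pds5a, Urb2 and Ptrh2 (0.0466 to 0.0527).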

How the data were processed

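Total RNA was amplified, labelled with Cy3 and hybridised to 12 single-colour Agilent arrays on 3 slides. The deposited scanner files hold spot intensity after Agilent Feature Extraction (version 10.5.1.1 per the file headers, 10.1 per the submitters' processing notes), background-subtracted by that software. The authors' deposited log2 value table ranked probes as the median spot signals do (its columns have medians of 8.54 to 8.56) and served as an alternative. From the intensities, 7921 flagged spots (1.52%) and 1639 control spots per array were left out, log2 values were centred on each array's 75th percentile, and the brightest probe stood for a gene. Of 26382 probes with a RefSeq accession, 24844 matched a symbol. Arrays were taken as wide-range where the 75th percentile exceeded 100 times the 25th. Probes had to be well above background on at least 2 of 8 arrays, or 4 of 12. Differences were tested with limma 3.58.1 in R 4.3.3 (lmFit and eBayes, Benjamini-Hochberg over all genes, threshold 0.05). The code was tested on simulated data. The members, the gene lists and the choice of arrays were made with earlier results of these data known. Named were all members, and, from each list, no more than 4 genes that passed (smallest adjusted p) and 2 others (highest level); 1 gene so chosen is not reported here. Lin54, Max, Rbl2 and Pdgfrb fell outside this rule and were named after their values were seen. The number of arrays limits the precision, and p-values measure the spread between experiments the study calls independent. In total 26 alternatives were run.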

Additional observations from a re-analysis of the deposited data

Results flagged for a closer look

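In each group of 4 arrays, the highest or lowest array was checked for a gap to its neighbour that was large against the range of the group, over 30 groups of the 10 genes. Chance flags about 1 in 20 such groups. Of the 8 results that stood out, 4 were on rapamycin 3, an array with raised dim probes, where the genes read low: E2f3 at -1.13 (next lowest 1.15), E2f5 at -1.998 (-0.44), E2f7 at -0.36 (1.90) and Rbl1 at 0.31 (2.02). PP242 4, another raised array, gave 2 more, with Rb1 at -0.81 against 0.38 for its neighbour and Rbl1 at 1.30 against 0.61. On wide-range arrays, E2f6 was far below its group on DMSO 4 (-4.66, next -3.07) and E2f5 stood above it on DMSO 3 (-0.13, next -0.43). The part of the raised dim probes in the low readings was not tested.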

How the results depend on the processing

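The number of members called was recomputed under 26 alternatives. For PP242 against DMSO it was 6 and became 0 on all 12 arrays without weights (plain, quantile normalised, with slide or with replicate block) and 3 when the 8 arrays were blocked by slide, where 7.01% of genes passed. Leaving out 1 DMSO or rapamycin array at a time gave up to 8, where 3598 of 19569 genes (without DMSO 3) to 6204 of 19288 (without rapamycin 4) passed. The fits without PP242 2 or PP242 3 leave 1 PP242 array. They gave fewer than 6, and their counts are not given. For PP242 against rapamycin it was 5 and became 0 in the same 4 fits of 12 arrays, where no gene passed. It was 3 with median centring (1748 of 19669 genes passed), 2 with the slide block (2.6% of genes) and 3 with the replicate block (4.98%). Leaving out 1 DMSO or rapamycin array gave at most 5, where 1480 of 19433 genes (without rapamycin 1) to 3509 of 19447 (without DMSO 4) passed. The fits without PP242 2 or PP242 3 gave fewer. For rapamycin against DMSO it was 0, became 2 with array weights on 12 arrays (E2f7 at 0.28 and Rb1 at 0.66, both higher, where 14.6% of genes passed) and 1 on 6 arrays, and stayed 0 leaving out each array. Quantile normalisation of 12 arrays reversed E2f3 (0.45) and E2f8 (0.29) in PP242 against rapamycin. The cause was not tested.

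Arrays that shared a replicate number were not treated as paired in the main fit. On the 8 arrays, r across genes was 0.62 for DMSO 4 and rapamycin 4 and 0.45 for DMSO 1 and rapamycin 1. The values for DMSO 3 with PP242 3 (0.12) and rapamycin 2 with PP242 2 (-0.25) cannot test pairing. With 2 PP242 arrays, deviations from the group mean mirror each other, so DMSO 3 had -0.12 with PP242 2. Whether the replicate numbers mark pairs was not settled. With the replicate block on 8 arrays, 5 members passed against DMSO under PP242, all but E2f8 (-1.98, limma adjusted p = 0.0578), and 20.1% of genes did. The 6- and 11-array fits were chosen after seeing the data.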
